A study of Arabidopsis thaliana with 18 samples.

Results

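BAM3 (AT4G20270), TIC (AT3G22380) and GUN5 (AT5G13630) are 3 coding genes of Arabidopsis thaliana that gave many 22-nt small RNA reads in wild-type seedlings on MS medium and few on abscisic acid (ABA). They are 3 of the 32420 genes measured, and they were chosen for exactly this pattern, so their levels in Col-0 are a description and carry no test. Small RNAs were sequenced from whole seedlings that the sample labels give as 14 days old. The groups were dcl4-2 dcl2-1 on ABA, dcl4-2 dcl2-1 on MS, dcl4-2 on ABA, dcl4-2 on MS, the wild type Col-0 on ABA and Col-0 on MS, with 3 biological replicates each per the labels. The ABA medium was MS with 1 µM ABA, a stress and seed hormone. All 4 mutant groups carried the dcl4-2 allele of the Dicer-like gene DCL4, and the double mutant also carried the dcl2-1 allele of DCL2. A general growth note, which describes aerial parts of older, untreated plants on soil, contradicts the age, tissue and medium labelled for each sample, and those were followed. A level here is the number of 22-nt reads assigned to a gene per M (mega) reads of its library (RPM).

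Small interfering RNAs (siRNAs) are cut by Dicer-like enzymes from double-stranded RNA, which RNA-dependent RNA polymerases can copy from a coding transcript. In Arabidopsis, DCL2 is the enzyme known for the 22-nt class, while DCL4 makes a shorter class and normally outcompetes it. Such siRNAs guide Argonaute proteins to transcripts of matching sequence. BAM3 encodes a receptor kinase with leucine-rich repeats that perceives the peptide CLE45 and restrains differentiation of protophloem, the first sugar-conducting tissue of the root. TIC (TIME FOR COFFEE) is a nuclear regulator of the circadian clock that is needed for normal clock period and amplitude. GUN5 (also known as CHLH) is the large subunit of magnesium chelatase, which inserts magnesium into protoporphyrin IX on the way to chlorophyll. It is also known from mutants defective in plastid-to-nucleus signalling, and its proposed role in ABA perception has been debated.

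In the TAIR10.1 annotation of RefSeq, BAM3 lies at chr4:10949573-10953113 on the plus strand and has 2 exons, a transcript of 3417 bases and a coding part of 2979 bases. TIC lies at chr3:7912905-7919707 on the plus strand, with 12 exons, a transcript of 5757 bases and a coding part of 4653 bases. GUN5 lies at chr5:4387307-4392429 on the minus strand, with 5 exons, a transcript of 4753 bases and a coding part of 4146 bases. All 3 are long genes: BAM3, TIC and GUN5 are longer than 83.3%, 98.0% and 94.5% of the 27562 annotated coding genes, whose median length is 2075 bases. No annotated gene overlaps any of them.

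The transcripts differ in how uniquely a 22-nt read can be placed. Of the 3396 words of 22 bases in the BAM3 transcript, 19 (0.559%) also occur elsewhere in the genome, 10 of them in CLV1, the receptor kinase of the stem cell peptide CLV3. TIC has 8 such words of 5736 (0.139%), none of them in its relative TKL (TIC-LIKE), and GUN5 has 1 of 4732 (0.0211%). No word of BAM3 is identical to one in its relatives BAM1 and BAM2, but 9 words match BAM1 and 12 match BAM2 with at most 1 mismatch. A stretch of BAM3 that holds most of the words shared with CLV1 is printed with the aligned bases of its 3 relatives, because 22-nt reads from the shared run cannot be assigned to one gene. It lies in the coding part at chr4:10952356-10952415 (plus strand) for BAM3, chr1:28464116-28464175 (minus strand) for CLV1, chr5:26284312-26284371 (plus strand) for BAM1 and chr3:18420215-18420274 (plus strand) for BAM2 in TAIR10.1. Capitals mark the run of at least 22 bases that is identical in BAM3 and CLV1.
BAM3: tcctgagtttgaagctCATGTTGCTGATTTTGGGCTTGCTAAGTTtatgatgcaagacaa
CLV1: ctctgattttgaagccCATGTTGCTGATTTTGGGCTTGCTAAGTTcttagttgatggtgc
BAM1: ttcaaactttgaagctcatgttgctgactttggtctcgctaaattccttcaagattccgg
BAM2: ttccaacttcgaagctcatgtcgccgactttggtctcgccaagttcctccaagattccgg
Of these 60 bases, CLV1 shares 45 with BAM3, BAM1 shares 40 and BAM2 shares 37. The deposited values are sums per gene, so the part of each transcript that gave the reads is not known here.

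The deposited value of a group is a mean over its 3 libraries, and the whole reads behind it were recovered per library. Libraries are called A, B and C by falling depth within a group, and a letter pairs nothing across groups. The libraries held 0.181 to 1.28 M reads in dcl4-2 dcl2-1 on ABA, 0.0953 to 1.10 M in the double mutant on MS, 0.517 to 12.7 M in dcl4-2 on ABA, 0.514 to 0.831 M in dcl4-2 on MS, 1.53 to 2.19 M in the wild type on ABA and 0.581 to 0.978 M in the wild type on MS. A single read was worth 5.53 RPM in the shallowest library of dcl4-2 dcl2-1 on ABA and 10.5 RPM in that of dcl4-2 dcl2-1 on MS. A count of 0 allows up to 3 reads, or 16.6 RPM in the shallowest ABA library of the double mutant and 31.5 RPM in its shallowest MS library, so neither can show the absence of levels such as those of dcl4-2. These limits cover counting error only. In Col-0 on MS, library B stood below libraries A and C: the 50 coding genes with the highest means there summed to 1493 RPM in B, against 2716 in A and 3739 in C, and 30 of the 50 were lowest in B. Even so, 14 of the 50 were highest in B, 12 in A and 24 in C. Reads of 22 nt do not measure mRNA, so the genotype and the tissue could not be checked from the transcripts of the DCL genes or of marker genes.

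BAM3 gave 22-nt reads mainly in Col-0 on MS, at a lower level in dcl4-2 on both media, and hardly any in Col-0 on ABA or in the double mutant. In dcl4-2 dcl2-1 on ABA its level was 0, 2.72 and 0 RPM in libraries A, B and C, and in dcl4-2 dcl2-1 on MS it was 0, 1.01 and 0 RPM. It was 14.4, 3.99 and 0 RPM in dcl4-2 on ABA and 2.41, 15.0 and 3.89 RPM in dcl4-2 on MS. The double mutant thus had BAM3 reads in library B alone on each medium, though its libraries C were too shallow for a 0 to show absence. Its 3 libraries pooled gave 1.17 RPM on ABA and 0.458 RPM on MS, against 9.56 and 6.96 RPM in dcl4-2. In Col-0 on ABA the level was 0.913, 0 and 1.96 RPM, and in Col-0 on MS it was 65.4, 4.60 and 51.7 RPM. Libraries A and C of Col-0 on MS lay above every other library in the study, while library B lay within the range of dcl4-2. From lowest to highest mean, the groups were dcl4-2 dcl2-1 on MS (0.336 ± 0.583 RPM), dcl4-2 dcl2-1 on ABA (0.907 ± 1.57), Col-0 on ABA (0.957 ± 0.980), dcl4-2 on ABA (6.12 ± 7.41), dcl4-2 on MS (7.11 ± 6.90) and Col-0 on MS (40.6 ± 31.9; SD, n = 3 each). In this order the libraries of every pair of neighbours overlapped. Since whole seedlings were sequenced, fewer cells making these RNAs and less of them per cell cannot be told apart.

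TIC had much the same profile. Its level was 0, 2.72 and 0 RPM in dcl4-2 dcl2-1 on ABA and 0, 2.02 and 0 RPM in dcl4-2 dcl2-1 on MS. It was 16.3, 4.69 and 5.80 RPM in dcl4-2 on ABA and 9.63, 6.01 and 1.95 RPM in dcl4-2 on MS. All 6 dcl4-2 libraries held TIC reads, while the double mutant had them in library B alone on each medium. Depth differed, up to 12.7 M reads in dcl4-2 on ABA. Libraries C of the double mutant held 0.181 M on ABA and 0.0953 M on MS, too few for their 0 values to show absence. In Col-0 on ABA the TIC level was 0, 1.64 and 0 RPM, and in Col-0 on MS it was 70.6, 2.30 and 27.6 RPM. As for BAM3, libraries A and C of Col-0 on MS exceeded all others, and library B fell among those of dcl4-2 on MS. From lowest to highest mean, the groups were Col-0 on ABA (0.546 ± 0.947 RPM), dcl4-2 dcl2-1 on MS (0.673 ± 1.17), dcl4-2 dcl2-1 on ABA (0.907 ± 1.57), dcl4-2 on MS (5.86 ± 3.84), dcl4-2 on ABA (8.92 ± 6.38) and Col-0 on MS (33.5 ± 34.5; SD, n = 3 each). Every pair of neighbours in this order overlapped.

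GUN5 differed from the other 2 genes in keeping reads in the double mutant. Its level was 4.69, 5.44 and 0 RPM in dcl4-2 dcl2-1 on ABA and 11.9, 5.05 and 0 RPM in dcl4-2 dcl2-1 on MS. It was 3.39, 5.59 and 9.67 RPM in dcl4-2 on ABA and 3.61, 15.0 and 0 RPM in dcl4-2 on MS. The ranges of these 4 groups overlapped one another, and the 0 values came from libraries in which 1 read was worth 1.95 RPM or more. In Col-0 on ABA the level was 3.65, 3.28 and 3.26 RPM, the tightest of all groups, and in Col-0 on MS it was 50.1, 18.4 and 114 RPM. Each library of Col-0 on MS lay above every library of the other 5 groups. From lowest to highest mean, the groups were dcl4-2 dcl2-1 on ABA (3.38 ± 2.95 RPM), Col-0 on ABA (3.40 ± 0.220), dcl4-2 dcl2-1 on MS (5.64 ± 5.96), dcl4-2 on MS (6.21 ± 7.85), dcl4-2 on ABA (6.22 ± 3.19) and Col-0 on MS (60.7 ± 48.5; SD, n = 3 each). Only the last of these steps separated groups whose libraries did not overlap.

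**Figure D1:**
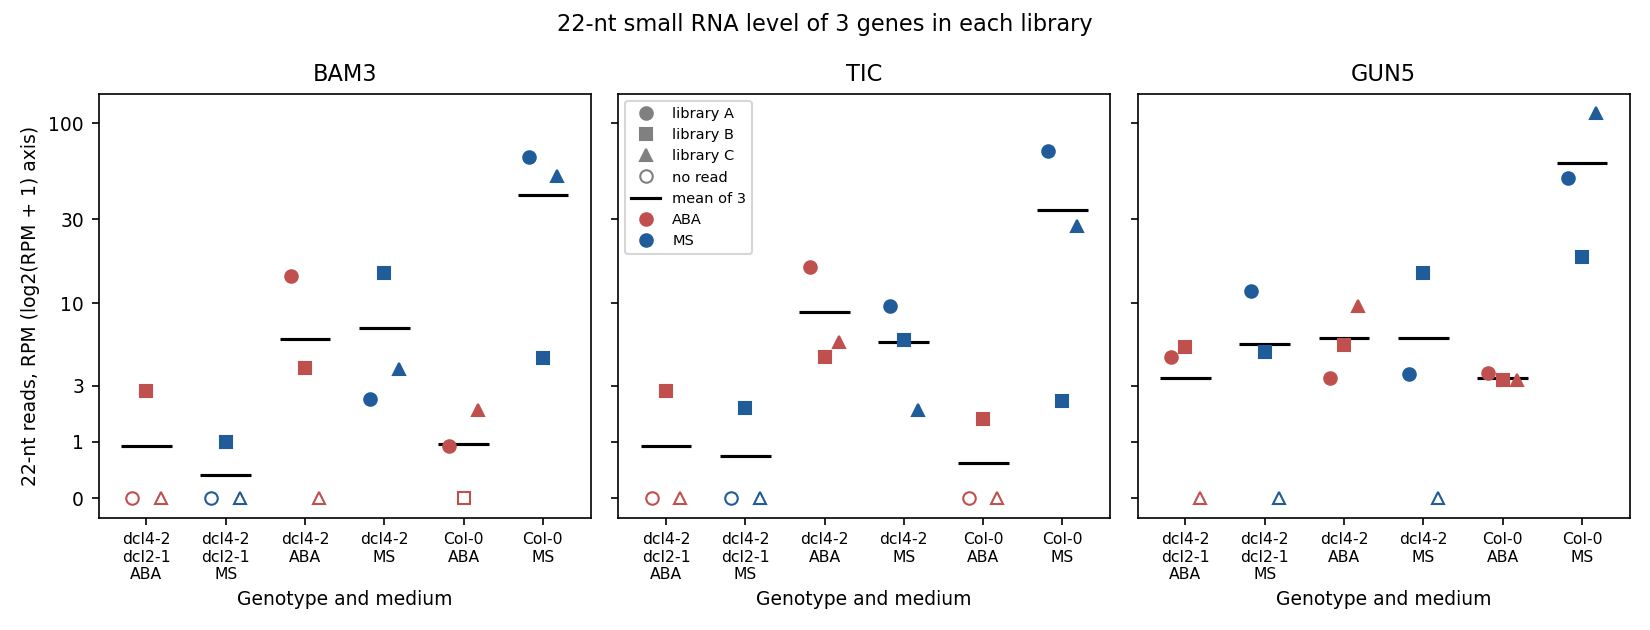
The 22-nt level of BAM3, TIC and GUN5 in each of the 18 libraries, in RPM on a log2(RPM + 1) axis, by genotype and medium. Circles, squares and triangles are libraries A, B and C, open symbols are libraries with no read, red is ABA, blue is MS, and bars are means of 3 libraries. Col-0 on MS holds the highest mean for each gene, at 40.6, 33.5 and 60.7 RPM, with library B the lowest of its 3 libraries.

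Among the 26712 coding genes in the table, GUN5 ranked 8, BAM3 14 and TIC 21 by mean level in Col-0 on MS. The ranks of BAM3, TIC and GUN5 were 111, 58 and 109 in dcl4-2 on ABA, and 72, 92 and 86 in dcl4-2 on MS. In Col-0 on ABA they were 1027, 1881 and 212. Per kilobase of transcript, the level in Col-0 on MS was 11.9 ± 9.34 RPM for BAM3, 5.81 ± 5.99 RPM for TIC and 12.8 ± 10.2 RPM for GUN5 (SD, n = 3 each), so TIC was the lowest per length, by less than the spread between libraries. Leaving out the nitrate reductase genes NIA1 and NIA2, whose reads dominate in dcl4-2, the 3 genes made up 0.0624 to 0.0744% of the coding RPM in the libraries of Col-0 on ABA. In Col-0 on MS they made up 2.93% in library A, 0.410% in library B and 2.30% in library C. That share of library B was exceeded in dcl4-2 MS library B, at 0.595%, and in dcl4-2 ABA library A, at 0.440%. NIA1 was lowest in library B of Col-0 on MS as well, at 399, 220 and 906 RPM in A, B and C.

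In Col-0, all 3 genes were lower on ABA than on MS, which is what chose them. For each gene the 3 ABA libraries lay below the 3 MS libraries, which was so for 2.95% of the 5697 genes that entered the fit. Those genes had at least 1 RPM in at least 3 libraries, and each of BAM3, TIC and GUN5 met this without its Col-0 libraries, in 7, 8 and 9 of the 12 mutant libraries. On the log2(RPM + 1) scale, which understates changes of low genes, the ABA minus MS difference was -3.92 for BAM3, -3.77 for TIC and -3.46 for GUN5. Leaving out each library of the compared groups in turn gave -5.05 to -3.27 for BAM3, -5.03 to -2.81 for TIC and -4.12 to -2.84 for GUN5, each lowest without library B of Col-0 on MS. The authors' deposited table gave log2 fold changes of -5.43, -5.94 and -4.15 for the same comparison.

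Set against Col-0 on the same medium, the mutants also differed in ways that are given as values only, since Col-0 entered the choice. On MS the difference of dcl4-2 dcl2-1 from Col-0 was -4.42 for BAM3, -3.71 for TIC and -3.50 for GUN5, on the log2(RPM + 1) scale, with no overlap for any of the 3, as for 8.65% of all genes in that direction. On the same medium the difference of dcl4-2 from Col-0 was -2.07 for BAM3, -1.65 for TIC and -3.53 for GUN5. Only GUN5 had libraries that did not overlap between dcl4-2 and Col-0 on MS, as 3.60% of all genes did. On ABA the difference of dcl4-2 from Col-0 was 1.25 for BAM3, 2.66 for TIC and 0.62 for GUN5, and the TIC libraries of dcl4-2 all lay above those of Col-0, as did those of 9.10% of genes. The difference of dcl4-2 dcl2-1 from Col-0 on ABA was -0.20 for BAM3, 0.17 for TIC and -0.40 for GUN5, with overlapping libraries throughout. These comparisons share their Col-0 libraries with one another and with the comparison of media above.

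The comparison of dcl4-2 dcl2-1 with dcl4-2 asks which 22-nt RNAs of the single mutant need DCL2. No Col-0 level enters the difference itself, but the Col-0 libraries enter the shared estimate of the spread. On ABA, TIC fell in the double mutant to 0, 2.72 and 0 RPM, against 16.3, 4.69 and 5.80 RPM in dcl4-2, and no library overlapped. Its log2(RPM + 1) difference was -2.50 ± 0.80 (SE; 95% interval -4.09 to -0.90; limma, Benjamini-Hochberg adjusted p = 0.0451). Fitted on the compared groups alone it also passed (limma adjusted p = 0.0380). It was the 1 member of the 3 to pass, in a comparison where 6.18% of genes were lower in the double mutant and 25.7% did not overlap in that direction. The median over all genes was -0.51. TIC no longer passed without dcl4-2 ABA library A (-2.01, limma adjusted p = 0.178), without dcl4-2 ABA library C (-2.68, 0.136), or without library A or C of the double mutant (-2.18 in each case, 0.131 and 0.150). The call also ended with a pseudocount of 5, without the filter on low levels, and when the summed level of MIRNA genes was made equal. The authors' deposited table gave TIC a log2 fold change of -2.86 with an adjusted p of 0.238 in this comparison.

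BAM3 and GUN5 did not pass there. The BAM3 difference on ABA was -1.46 ± 0.82 (SE; 95% interval -3.07 to 0.16; limma adjusted p = 0.273), and its libraries overlapped because dcl4-2 library C had no read. For GUN5 it was -1.03 ± 0.86 (95% interval -2.74 to 0.69; limma adjusted p = 0.501). Leaving out each library in turn gave -2.50 to -0.53 for BAM3, at the ends without dcl4-2 ABA library C and without dcl4-2 ABA library A, and -1.50 to -0.16 for GUN5. The authors' deposited table gave -2.38 with an adjusted p of 0.367 for BAM3 and -0.40 with 0.840 for GUN5.

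On MS, none of the 3 genes passed between dcl4-2 dcl2-1 and dcl4-2, where 0.579% of genes were called lower. BAM3 was at 0, 1.01 and 0 RPM in the double mutant, against 2.41, 15.0 and 3.89 RPM in dcl4-2, without overlap, which held for 3.83% of genes in this direction. The values of 2.41 and 3.89 RPM are 2 reads each. In library C of the double mutant 1 read was worth 10.5 RPM and would have ended the separation. The BAM3 count there was 0, which cannot show a level below that of dcl4-2. The BAM3 difference was -2.35 ± 0.82 (SE; 95% interval -3.97 to -0.73; limma adjusted p = 0.237). For TIC it was -2.06 ± 0.80 (95% interval -3.66 to -0.47; limma adjusted p = 0.350), and its libraries overlapped. Before adjustment, limma gave p-values of 0.00478 for BAM3 and 0.0118 for TIC. The GUN5 difference was 0.02 ± 0.86 (95% interval -1.69 to 1.74; limma adjusted p = 1). That interval leaves room for a difference of more than 1 on the log2 scale in either direction.

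Within the mutants, ABA was compared with MS, the contrast that chose the genes in Col-0. In dcl4-2 the ABA minus MS difference was -0.60 ± 0.82 for BAM3 (SE; 95% interval -2.22 to 1.02; limma adjusted p = 0.700), with overlapping libraries. It was 0.54 ± 0.80 for TIC (-1.06 to 2.13; limma adjusted p = 0.729) and 0.69 ± 0.86 for GUN5 (-1.03 to 2.40; limma adjusted p = 0.670). None of the 3 had an unadjusted p under 0.05 there, while 5.58% of all genes passed and the median over all genes was 0.51. The authors' deposited table likewise gave adjusted p-values of 0.962, 0.781 and 0.912, with log2 fold changes of -0.13, 0.60 and -0.17, so the sign differed for GUN5. Its means were nearly equal, at 6.22 RPM in dcl4-2 on ABA and 6.21 RPM in dcl4-2 on MS, where library C had no GUN5 read. In Col-0 the same differences were -3.92, -3.77 and -3.46, in genes chosen for being high on MS and low on ABA there. The difference between the ABA effects of dcl4-2 and Col-0 was therefore not tested.

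In dcl4-2 dcl2-1 the ABA minus MS difference was 0.30 for BAM3 (95% interval -1.32 to 1.91; limma adjusted p = 1), 0.10 for TIC (-1.49 to 1.70; adjusted p = 1) and -0.36 for GUN5 (-2.08 to 1.35; adjusted p = 0.990). Of all genes, 0.228% passed in this comparison. With 3 reads on ABA and 1 or 2 on MS, BAM3 and TIC had too few reads in the double mutant for a difference to be seen at this depth. The ABA effect in the double mutant minus that in dcl4-2 was 0.90 ± 1.15 for BAM3, -0.43 ± 1.14 for TIC and -1.05 ± 1.22 for GUN5 (SE; limma adjusted p = 0.796, 0.913 and 0.767), where 0.211% of genes passed.

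**Figure D2:**
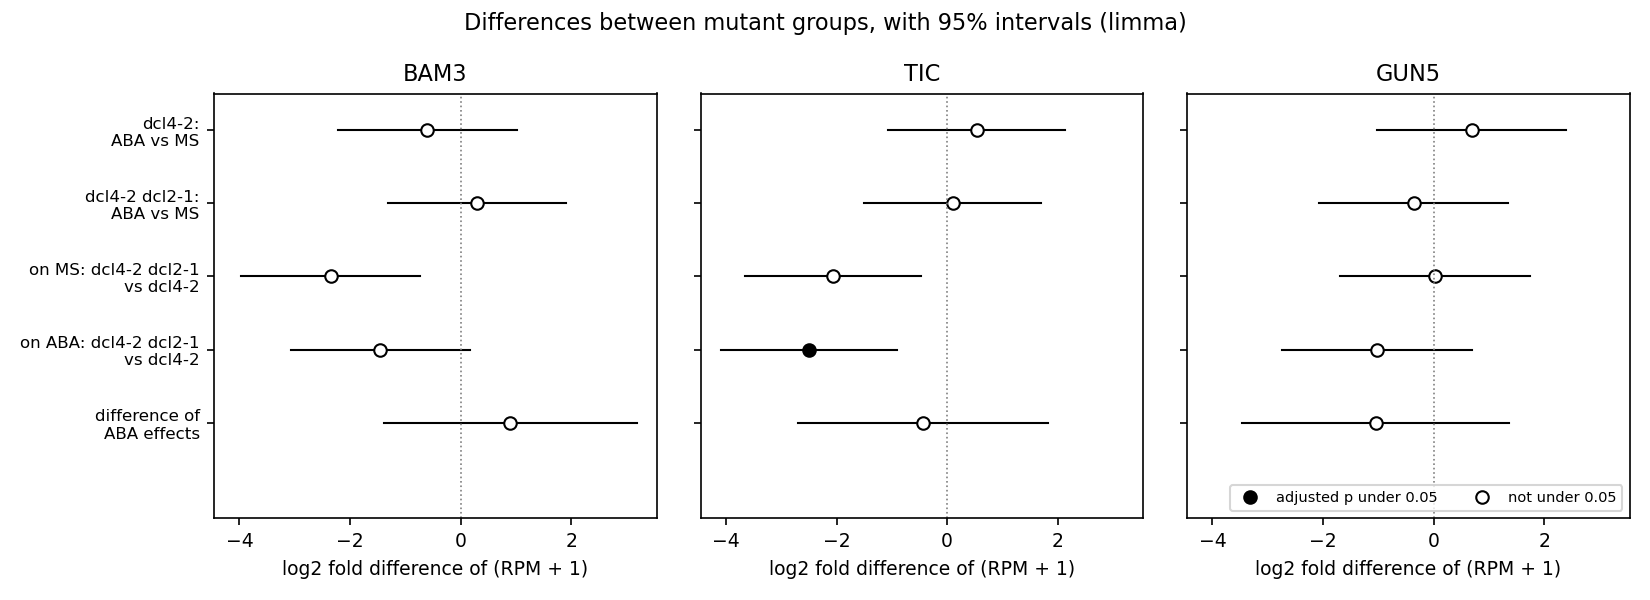
Differences between the mutant groups for BAM3, TIC and GUN5 on the log2(RPM + 1) scale, with 95% intervals from limma. Rows run from the ABA effect in dcl4-2 at the top to the difference of ABA effects at the bottom, filled points passed at an adjusted p under 0.05, and the single filled point is TIC in dcl4-2 dcl2-1 versus dcl4-2 on ABA (-2.50).

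In Col-0 on MS the relatives of BAM3 and TIC had lower means than BAM3 and TIC themselves. Since BAM3 and TIC were chosen for high levels there, this order is no support for a difference from their relatives. On MS the double mutant had 1.83, 2.02 and 0 RPM for BAM1 and 1.83, 1.01 and 0 RPM for BAM2, beside 0, 1.01 and 0 RPM for BAM3. These values are at most 2 reads per library, too few to rank the 3 genes. BAM1, which acts with BAM2 in meristems and anthers, was at 0.782, 0 and 0 RPM in dcl4-2 dcl2-1 on ABA, 3.31, 1.30 and 0 RPM in dcl4-2 on ABA and 9.20, 2.30 and 5.17 RPM in Col-0 on MS. In Col-0 on ABA it was at 0.457, 0 and 0 RPM, and its ABA minus MS difference of -2.39 ± 0.65 missed the threshold (SE; limma adjusted p = 0.0503). BAM2 was at 0.631, 0.299 and 5.80 RPM in dcl4-2 on ABA and 3.07, 0 and 3.44 RPM in Col-0 on MS. CLV1, which shares 10 words with BAM3, had 0.782, 0 and 5.53 RPM in dcl4-2 dcl2-1 on ABA and 1.02, 0 and 1.72 RPM in Col-0 on MS. Each of these values above 0 is 1 read, so they do not rank CLV1 against BAM3. TKL had reads in 1 library only, at 0.299 RPM in dcl4-2 ABA library B.

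The genes next to the 3 loci were nearly silent in 22-nt reads. TAF11 and AT4G20290, which follow BAM3, had no read in any library, and the 2 annotated genes before it are non-coding and were not analysed here. Beside TIC, AOX1A, an alternative oxidase gene of the mitochondrion, had 25 reads over the 18 libraries and at most 1.78 RPM as a group mean. LOX5 had 2 reads, and AOX1B and AT3G22410 had none. Beside GUN5, PDAT, which lies 507 bases away on the other strand, had 9 reads, SVR3 had 20, AT5G13610 had 4 and AT5G13620 had 0. The highest group mean among these 4 was 0.757 RPM, for PDAT in dcl4-2 on ABA.

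Pathway partners of the 3 genes, in lists chosen with earlier results of these data known, were mostly at low levels. Of 22 other genes of CLE peptide perception and phloem formation, 19 had reads and 7 entered the fit, among them CLV1, BAM1, BAM2, and SMXL3, SMXL4 and SMXL5, whose products promote phloem formation. SMXL4 and SMXL5 had the highest means of the list. SMXL4 fell in dcl4-2 dcl2-1 on ABA to 0, 0.907 and 0 RPM, against 28.6, 77.6 and 141 RPM in dcl4-2, a difference of -5.80 ± 0.79 (SE; limma adjusted p = 9.48e-08). On MS it fell in the double mutant to 0 RPM in all 3 libraries, against 18.1, 16.5 and 19.5 RPM in dcl4-2 (-4.25 ± 0.79; limma adjusted p = 2.79e-04). On the log2(RPM + 1) scale, a difference from libraries at 0 depends on the added 1 RPM. SMXL4 was the 1 of 7 to pass in each of these comparisons, where 6.18% of all genes were called lower on ABA and 0.579% on MS. A count of 1 in 7 is too small to be read as a result about the list. The list's medians were -0.83 on ABA and 0.00 on MS, beside -0.51 and -0.11 over all genes. In Col-0, 3 of the 7 were called lower on ABA than on MS, namely SMXL3, SMXL4 and SMXL5, where 0.386% of all genes were. SMXL3 entered the fit through Col-0 on MS, where it was at 9.20, 1.15 and 15.5 RPM, with 1 other library at or above 1 RPM (dcl4-2 MS library A), so its call had to go this way and the count is no support. The median of the 7 was -2.39 there, beside 0.26 over all genes, with the same limit. SMXL5 was at 6.85, 0 and 0.653 RPM in Col-0 on ABA and 126, 5.76 and 121 RPM in Col-0 on MS, so that library B was low for it as for BAM3. Its call ended when either high MS library was left out (limma adjusted p = 0.0712 without A and 0.0916 without C) and when the ABA library with no read was (0.0706). It also ended without the filter on low levels (limma adjusted p = 0.126).

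Few clock genes around TIC could be tested. Of 28 listed, 23 had reads and 5 entered the fit (TOC1, PRR5, PRR7, GI and LKP2), and none passed limma in any of the 10 comparisons. From 0.211% to 6.29% of all genes passed in these, so no call among 5 genes is near that share and sets nothing apart from TIC. At an unadjusted p under 0.05 there was 1 of the 5 in dcl4-2 dcl2-1 versus dcl4-2 on MS, as for 464 of all 5697 genes, and 0 in each of the other comparisons. The highest means over all libraries were 0.698 RPM for RVE4 and 0.563 RPM for PRR7, and the RVE4 value rests mainly on 1 read worth 10.5 RPM in the shallowest library. In dcl4-2 dcl2-1 versus dcl4-2 on ABA, where TIC passed, the median of the 5 was 0.09, beside -0.51 over all genes.

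Of 34 other genes of tetrapyrrole and chlorophyll synthesis, 31 had reads and 15 entered the fit. None was called between ABA and MS in Col-0, where 0.702% of all genes were. There 13 of the 15 (86.7%) had a negative ABA minus MS difference, beside 35.7% of all genes. The median was -0.34, beside 0.26 over all genes. It is the value of both CAO and GSA1, each with 1 read in Col-0 on MS and none in Col-0 on ABA. HEMA1, GSA1, GSA2, HEMG1, CHLI1, GUN4 and CAO entered the fit only with libraries of Col-0 on MS counted. This favours a negative sign, so the count and the median are no support. The most abundant genes of the list were CHLP, which makes the phytyl side chain, with a mean of 3.59 RPM over all libraries, and CRD1, a cyclase of the pathway, with 2.35 RPM. CHLP was at 3.65, 2.73 and 3.26 RPM in Col-0 on ABA and 3.07, 8.06 and 3.44 RPM in Col-0 on MS, a difference of -0.38 ± 0.77 (SE; limma adjusted p = 0.837). A single gene of the list passed between the mutants: HEMF1, a coproporphyrinogen oxidase gene, was higher in dcl4-2 dcl2-1 on ABA, at 0.782, 1.81 and 16.6 RPM, than in dcl4-2 on ABA, at 0.158, 0.200 and 0 RPM (2.00 ± 0.59; limma adjusted p = 0.0316), where 0.105% of genes were called higher. Its value of 16.6 RPM is 3 reads in the shallow library C, and without that library the difference was 1.00 (limma adjusted p = 0.273). It also missed the threshold without dcl4-2 ABA library A, B or C (limma adjusted p = 0.0845, 0.0569 and 0.148).

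**Figure D3:**
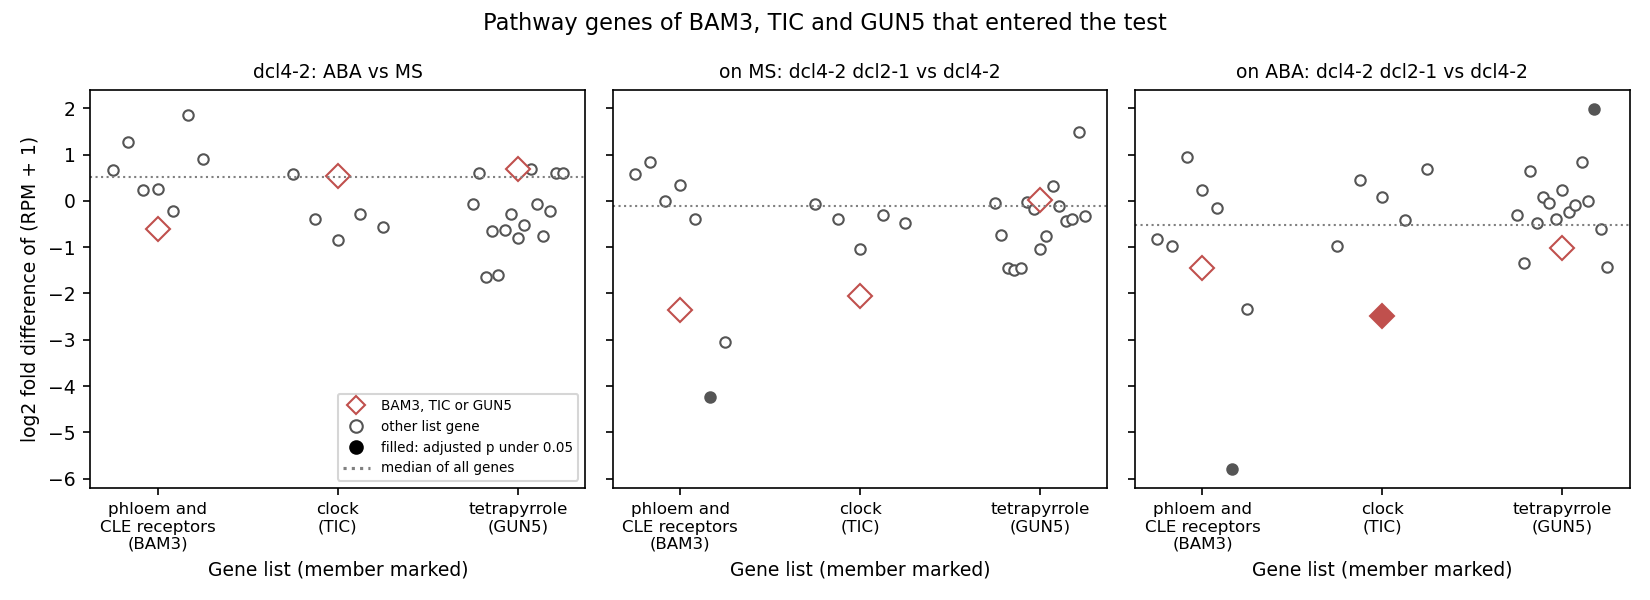
Differences of the pathway genes that entered the fit, on the log2(RPM + 1) scale, in 3 comparisons between mutant groups. Red diamonds are BAM3, TIC and GUN5, circles are other genes of their lists, filled symbols passed at an adjusted p under 0.05, and the dotted line is the median of all genes (0.51, -0.11 and -0.51). Beside TIC, the filled symbols are SMXL4 in the phloem list on both media and HEMF1 in the tetrapyrrole list on ABA.

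Across the 18 libraries, the genes whose log2(RPM + 1) profile was most like that of each member were taken from 1053 genes with a mean of at least 5 RPM in some group. These libraries share differences in depth and the high values of Col-0 on MS, so the correlations are descriptions. For BAM3 they were GLT1 (Pearson r = 0.851), PHV (0.848), TIC (0.844), ARF8 (0.833) and SMXL5 (0.810). GLT1 encodes the NADH-dependent glutamate synthase, PHV a transcription factor of the class III HD-ZIP family, and ARF8 an auxin response factor. For TIC they were GLT1 (0.865), PHB (0.848), BAM3 (0.844), PHV (0.843) and REV (0.809), of which PHB and REV are further class III HD-ZIP genes. BAM3 and TIC thus stood in each other's first 3.

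GUN5 had another set of like genes. They were CP5 (0.875), DGAT3 (0.831), ARF6 (0.817), AT1G07940 (0.800) and AT4G02760 (0.779). DGAT3 encodes a diacylglycerol acyltransferase and ARF6 an auxin response factor related to ARF8. With BAM3 and TIC, GUN5 had correlations of 0.654 and 0.644, which put it at rank 29 for BAM3 and rank 40 for TIC. All 11 like genes other than the members are coding genes with their highest mean in Col-0 on MS, and 9 of the 11 were lowest in library B of that group. Both counts are favoured by the choice of these genes for likeness to the members over the same libraries, so they are no separate result. PHB was at 0 RPM in all 9 libraries of dcl4-2 dcl2-1 and of Col-0 on ABA, at 5.44, 3.99 and 7.74 RPM in dcl4-2 on ABA and at 77.7, 15.0 and 105 RPM in Col-0 on MS. AT1G07940, like GUN5, kept reads in the double mutant, at 3.91, 1.81 and 0 RPM on ABA and 7.30, 4.04 and 0 RPM on MS.

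**Figure D4:**
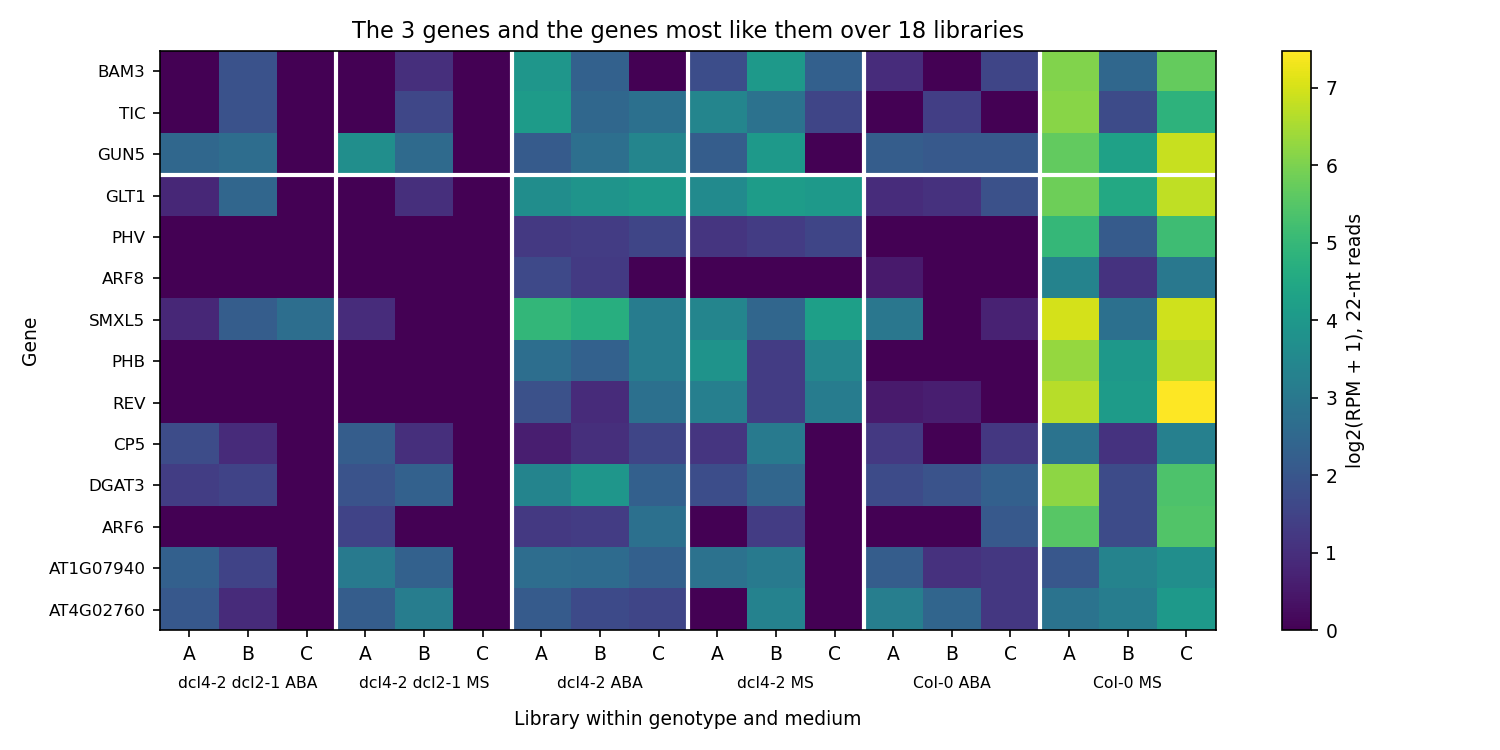
Heat map of log2(RPM + 1) of 22-nt reads for BAM3, TIC and GUN5 (top 3 lines) and the 11 genes most like them (below the white line) in the 18 libraries, grouped by genotype and medium. Libraries A and C of Col-0 on MS are the brightest for most genes, and library B of that group was the lowest of its 3 for 9 of the 11 genes below the line. The 11 genes were chosen for likeness over these same libraries, which favours both patterns.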

How the data were processed

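Small RNAs were sequenced as paired reads of 150 bases, of which the first was used, per the labels. The submitters' processing notes name Bowtie 1.2.2, SAMtools 1.9, DESeq2 and TAIR10, with no roles. The handling of reads with several places in the genome was not given in the sources used here. Per the file headers the deposited values are TPM. In each group, though, they were sums of whole multiples of 3 steps shared by all genes, so they are RPM averaged by the authors over 3 libraries, and gene length did not enter. The authors' deposited log2 fold changes and p-values cover 4 comparisons.

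Reads per library were found as the 3 whole numbers whose scaled mean equals the deposited value. BAM3, TIC and GUN5 each had 1 solution in all 6 groups. Of the 32420 genes, 35 had several in dcl4-2 dcl2-1 on MS, and 2 (NIA1 and NIA2) were not searched in dcl4-2 on ABA. Differences were fitted to log2(RPM + 1) with limma 3.58.1 (R 4.3.3), using a variance trend, a mean for each group and a spread shared by all 18 libraries. The filter of 1 RPM or more in 3 or more libraries left 5697 genes, or 5695 for comparisons with dcl4-2 on ABA. Two-sided p-values received the Benjamini-Hochberg adjustment over all of these genes, and 0.05 was the threshold. Intervals of 95% come from the same fit. The fit was also run on simulated counts, with equal means in every group apart from the genes made to change. A single spread setting served all genes and was not matched to the members, so that run does not bear on their results. The planned test had been written for TPM or RPM and was used as planned.

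The members, the lists and the comparisons were chosen with earlier results of these data known. Named were the members, per list up to 3 genes that passed per comparison and direction and the 2 with the highest means, the relatives, the neighbouring genes, and the 5 most like genes per member. CLV1, NIA1 and the other clock genes of the fit were named after their values were seen. Alternatives were the pseudocount (0.5 or 5), the filter (none, or 5 RPM), only the compared groups, libraries scaled to an equal summed MIRNA level, voom weights on the recovered reads, and leaving out each library. Gene positions and sequences are from RefSeq, TAIR10.1.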

Additional observations from a re-analysis of the deposited data

How the results depend on the processing

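No paired analysis was possible because the recovered libraries carry no replicate number. TIC in dcl4-2 dcl2-1 versus dcl4-2 on ABA (-2.50, limma adjusted p = 0.0451) passed with a pseudocount of 0.5, a filter of 5 RPM, the compared groups alone and voom weights (adjusted p from 0.0203 to 0.0468). It did not pass with a pseudocount of 5 (-1.18, adjusted p = 0.133), without a filter (-2.50, 0.150) or with equal MIRNA sums (-1.82, 0.749); leaving out 1 library gave -3.13 to -2.01 (0.0333 to 0.178). No other tested difference of a member passed under any alternative run. Equal MIRNA sums moved the median of all genes by -0.46 in dcl4-2 ABA versus MS, 0.40 in dcl4-2 dcl2-1 versus dcl4-2 on ABA, 0.52 in the difference of ABA effects, -0.33 in Col-0 ABA versus MS, 0.28 in dcl4-2 dcl2-1 versus Col-0 on ABA and -0.12 in dcl4-2 versus Col-0 on ABA.

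Signs turned among differences that did not pass, and the cause was not tested. In dcl4-2 ABA versus MS, TIC gave -0.78 and GUN5 -0.61 with equal MIRNA sums, and BAM3 0.036 with voom. The difference of ABA effects became 0.85 for TIC and 0.19 for GUN5 with equal MIRNA sums. With voom, TIC gave -0.16 in dcl4-2 dcl2-1 ABA versus MS and GUN5 0.0013 in dcl4-2 dcl2-1 versus dcl4-2 on ABA. On MS that GUN5 difference was -0.0086 with a pseudocount of 5 and -0.41 with equal MIRNA sums. Leaving out 1 library gave, for BAM3, -1.53 to 0.44 in dcl4-2 ABA versus MS, -0.34 to 0.63 in dcl4-2 dcl2-1 ABA versus MS and -0.15 to 1.82 for the difference of ABA effects. For TIC it gave -0.53 to 0.63 in dcl4-2 dcl2-1 ABA versus MS and -1.07 to 0.10 for the difference of ABA effects. For GUN5 it gave -0.35 to 1.65 in dcl4-2 ABA versus MS, -1.41 to 0.50 in dcl4-2 dcl2-1 ABA versus MS and -1.01 to 1.07 in dcl4-2 dcl2-1 versus dcl4-2 on MS.

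Of the described differences, TIC in dcl4-2 versus Col-0 on ABA was 2.66, but 1.25 with a pseudocount of 5 and 4.07 with voom, and in dcl4-2 dcl2-1 versus Col-0 on ABA it was 0.17, but 1.34 with voom. Over all genes, those called lower in dcl4-2 dcl2-1 versus dcl4-2 on ABA numbered 352, and 12 to 526 over the alternatives. Those called higher in dcl4-2 ABA versus MS numbered 302, and 9 to 477. The calls of SMXL4 held under each of 13 alternatives, that of SMXL5 under 9 of 13 and that of HEMF1 under 5 of 11. That of SMXL3 held under the 12 run for it (highest limma adjusted p = 0.0497). Since SMXL3 entered the fit through Col-0 on MS, this is no support for its call. Depth limits the double mutant most: a count of 0 in its shallowest library allows up to 16.6 RPM on ABA and 31.5 RPM on MS.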
